A study of Mus musculus with 18 samples.

Results

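The amino acid transporter genes described here are those whose mouse symbol begins with Slc1a, Slc3a, Slc6a, Slc7a, Slc36a, Slc38a or Slc43a and whose expected counts summed to 90 or more over all 18 libraries. Expected counts are estimated read counts per gene. This rule kept 37 of 67 genes with such a symbol, out of 55487 genes listed in every library. The Slc7a family gave 12 of them, Slc38a 10, Slc6a 7, Slc1a 3, Slc3a 2, Slc36a 2 and Slc43a 1. The symbol prefix also took in Slc6a19os, an RNA antisense to Slc6a19, and Slc7a6os, a neighbor of Slc7a6 that is not a transporter. Slc38a8, with 100 counts in all, and Slc1a1, with 177, lay just inside the minimum, and Slc6a20a, with 84.2, and Slc6a15, with 54, lay just outside it. Of the 30 genes below the minimum, 9 had 0 counts in every library, and Slc1a2, Slc43a1 and Slc43a3 summed to 17, 4 and 10 counts. All 37 genes passed the filter on low counts. Slc38a1, Slc38a11, Slc1a1, Slc6a19os, Slc7a7 and Slc38a8 had fewer than 90 counts outside the cell type that held most of theirs (70.75, 14, 45 and 32 counts for the first 4), so that they met the minimum only through that cell type and their excess there is tied to the rule.

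The libraries came from pancreatic islets of male C57BL/6 mice (C57BL/6JRj, 12 weeks old). The islets were cultured for 20 h with interferon gamma (IFNγ, which lymphocytes release during immune responses) at 5 ng/mL, or without it as control. After dissociation, flow cytometry separated delta, alpha and beta cells, which gave 6 groups of 3 libraries each: delta IFNγ, delta control, alpha IFNγ, alpha control, beta IFNγ and beta control. Among cells with the epithelial antigen Epcam, high CD24 marked delta cells, low CD24 without CD71 alpha cells and low CD24 with CD71 beta cells. No group carried a genetic change, and the cytokine was given to whole islets, so each sorted cell type was exposed in the presence of the others.

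Amino acids cross membranes through carriers that differ in what they move and in what drives them. The SLC7 light chains exchange one amino acid for another, and several of them reach the cell surface only when bound to a heavy chain, 4F2hc (gene Slc3a2) or rBAT (gene Slc3a1). The cationic transporters of the same family carry arginine, lysine and ornithine without a heavy chain. SLC38, SLC6 and SLC1 proteins mostly use the sodium gradient, SLC36 proteins the proton gradient, and SLC43 proteins let large neutral amino acids move down their own gradient. In islets, arginine stimulates the release of both insulin and glucagon, and glutamine and alanine that of glucagon. Glucagon in turn raises amino acid breakdown in the liver.

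Library totals lay between 6128845 and 11531734 expected counts, and the 37 genes together took 0.217% to 0.470% of them. Levels between libraries are given in CPM, counts relative to the scaled library size, and levels between genes in TPM, which also divides by transcript length. All 6 alpha markers were higher, and all 9 beta markers lower, in control alpha than in control beta cells. The 5 delta markers that were tested, Cd24a of the sorting antigen among them, were higher in control delta than in both other cell types, while the delta marker Cckbr was at 0 in every library. Alpha control 2 held 11680 CPM of the beta markers, against 3125 and 1610 CPM in the other alpha controls. The 19 acinar markers summed to 704 to 3745 CPM in the delta libraries, with delta control 3 the highest, and to 2718 CPM in beta control 1, beside 126 and 0.913 CPM in the other beta controls. The IFNγ-induced genes Cd274, Irf1, Cxcl10, Tap1, B2m, Irgm2 and Igtp were called higher with IFNγ in each cell type, Cd274 for example by 3.98 in delta, 3.43 in alpha and 4.08 in beta cells on the log2 scale.

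A small set of carriers made up most of the transporter RNA. Averaged over 18 libraries and compared per length, the heavy chain gene Slc3a2 stood first with 45.2 TPM. It was followed by the sodium-coupled neutral transporter Slc38a4 with 44.2, the SLC7 member Slc7a14 with 42.3, the cationic transporter Slc7a2 with 40.1 and the taurine transporter Slc6a6 with 39.2 TPM. Slc38a10 had 30.02 TPM, the LAT2 light chain gene Slc7a8 27.4, the LAT1 light chain gene Slc7a5 26.7, the glutamine carrier gene Slc38a2 26.04 and the LAT4 gene Slc43a2 18.9 TPM. These 10 genes held 80.4% of the summed TPM, 17 genes lay between 1 and 10 TPM, and 10 lay under 1 TPM. The order differed between cell types. In delta controls Slc7a14 (50.1 TPM), Slc6a6 (36.0) and Slc38a2 (33.9) stood above Slc3a2 (23.3), and in alpha controls Slc38a4 (102.6), Slc7a2 (102.5) and Slc7a8 (72.1) above Slc3a2 (71.5), whereas in beta controls Slc3a2 was first at 54.6 TPM. The averages cover wide ranges, since Slc38a4 ran between 2.01 and 134 TPM and Slc7a2 between 0.85 and 132 TPM over the libraries, whereas Slc6a6 stayed between 17.3 and 54.2 TPM.

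Summed over the 37 genes, the level was 2088 ± 82.9 CPM in delta IFNγ and 2451 ± 63.1 CPM in delta control libraries. It was 3564 ± 125 CPM in alpha IFNγ and 3980 ± 108 CPM in alpha control libraries, and 3275 ± 91.3 CPM in beta IFNγ and 3388 ± 90.8 CPM in beta control libraries (SD, n = 3 each). The sums of TPM were 231 ± 67.9 in delta IFNγ and 290 ± 51.9 in delta control libraries. They were 439 ± 191 in alpha IFNγ and 649 ± 125 in alpha control, and 494 ± 42.9 in beta IFNγ and 436 ± 39.5 in beta control libraries. In TPM the IFNγ and control libraries overlapped in each cell type. In beta cells the direction between treatments thus differed with the unit.

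The sorted cell types differed in which carriers they expressed. In control cells, 17 of 37 genes differed between alpha and beta cells at an adjusted p under 0.05 in edgeR's quasi-likelihood test, where 19.7% of all 17338 tested genes did. Of these 8 were higher in alpha cells, where 9.56% of all genes were, and 9 lower, where 10.1% were. Between delta and beta controls 14 of 37 differed, against 20.5% of all genes, with 4 higher (11.4% of all genes) and 10 lower in delta (9.11%). Between delta and alpha controls 16 of 37 differed, against 19.7% of all genes, with 8 higher (10.9%) and 8 lower in delta (8.77%). The median log2 fold change of the 37 genes was -0.22 for alpha over beta, 0.03 for delta over beta and 0.04 for delta over alpha cells, beside 0.04, 0.05 and 0.03 over all tested genes. The counts include genes that met the minimum only through one cell type, 2 of the 17, 4 of the 14 and 3 of the 16. For 12 genes, among them Slc6a6, the proton-coupled Slc36a4, the glycine transporter gene Slc6a9 and the lysosomal arginine sensor Slc38a9, no pair of control cell types passed the threshold. The share of all genes without such a pair is not given here. Slc6a6 had 237, 239 and 214 CPM in delta, 208, 186 and 195 CPM in alpha and 242, 255 and 230 CPM in beta controls, and Slc36a4 lay between 38.3 and 58.5 CPM and Slc38a9 between 11.6 and 23.2 CPM over all 9 controls. A lower level in such bulk sorted libraries can come from fewer of the cells that express a gene or from less RNA per cell, and these cannot be told apart.

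The cationic amino acid transporters differed between the cell types. Slc7a2, which carries arginine, lysine and ornithine, had 12.2, 25.6 and 35.6 CPM in delta IFNγ and 23.5, 21.2 and 62.0 CPM in delta control libraries. It had 1201, 1047 and 1159 CPM in alpha IFNγ and 1071, 895 and 1089 CPM in alpha control libraries. In beta cells it had 244, 280 and 253 CPM with IFNγ and 241, 261 and 370 CPM in controls. No library of one cell type overlapped with one of another. Delta control 3, the highest delta library for both Slc7a2 and Slc38a4, held 2341 CPM of the alpha markers, beside 105 and 294 CPM in the other delta controls, and their part in these levels was not tested. In controls the log2 fold change was -3.03 for delta over beta (SE 0.381, adjusted p = 9.63e-06), -4.84 for delta over alpha (SE 0.413, adjusted p = 1.5e-07) and 1.81 for alpha over beta cells (SE 0.361, adjusted p = 0.00136). Slc7a2 lies on chromosome 8 from 40862396 to 40922308 (GRCm38, ENSMUSG00000031596) and overlaps Gm26584.

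Slc7a1, the cationic transporter found in most tissues, ran the other way between alpha and beta cells, with 46.9, 77.8 and 52.9 CPM in alpha and 101, 97.5 and 88.2 CPM in beta controls (log2 fold change -0.69, SE 0.192, adjusted p = 0.0148), a call lost in 6 of 31 alternatives. The delta controls had 84.7, 92.9 and 68.1 CPM and differed from neither other cell type past the threshold. Slc7a14, a relative of these carriers by sequence, had 809, 799 and 961 CPM in delta, 457, 488 and 405 CPM in alpha and 751, 851 and 924 CPM in beta controls. It was thus lower in alpha than in both others, at a log2 fold change of 0.93 for delta over alpha (SE 0.169, adjusted p = 0.000583) and -0.90 for alpha over beta cells (SE 0.169, adjusted p = 0.000754).

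The light chains that bind 4F2hc were split between the cell types. Slc7a8, the LAT2 light chain for small and large neutral amino acids, had 33.6, 33.4 and 27.8 CPM in delta, 455, 456 and 450 CPM in alpha and 215, 202 and 183 CPM in beta controls. The 3 groups did not overlap. The log2 fold change was -2.66 for delta over beta (SE 0.213, adjusted p = 4.68e-08), -3.84 for delta over alpha (SE 0.224, adjusted p = 2.03e-09) and 1.18 for alpha over beta cells (SE 0.201, adjusted p = 0.000324). Slc7a5, the LAT1 light chain for large neutral amino acids such as leucine, had another order, with 147, 164 and 90.1 CPM in delta, 67.4, 123 and 91.7 CPM in alpha and 287, 225 and 219 CPM in beta controls. Its log2 fold change was -0.87 for delta over beta (SE 0.284, adjusted p = 0.0368) and -1.37 for alpha over beta cells (SE 0.288, adjusted p = 0.00205), and delta and alpha did not differ past the threshold. It overlaps Gm20388. The heavy chain gene Slc3a2 had 79.4, 90.9 and 58.0 CPM in delta, 184, 228 and 163 CPM in alpha and 201, 178 and 134 CPM in beta controls. The delta controls lay below all others, at a log2 fold change of -1.33 over alpha (SE 0.295, adjusted p = 0.00331) and -1.17 over beta cells (SE 0.295, adjusted p = 0.0075).

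Of the less abundant light chains, the y+LAT genes Slc7a6 and Slc7a7, whose products exchange cationic for neutral amino acids, were higher in alpha than in beta controls, with the Slc7a6 call (adjusted p = 0.0236) lost in 10 of 31 alternatives. Slc7a7 had 1.02, 3.21 and 3.53 CPM in alpha and 0.142, 0.351 and 0.152 CPM in beta controls (log2 fold change 3.47, SE 0.857, adjusted p = 0.00702), and it overlaps Oxa1l on the other strand. With 81.45 counts outside alpha cells, Slc7a7 met the count minimum only through them, so its excess there is tied to the rule. Slc7a11, the xCT light chain that takes up cystine in exchange for glutamate, had 0.726, 4.95 and 0.855 CPM in alpha and 6.70, 11.7 and 15.7 CPM in beta controls (log2 fold change -2.39, SE 0.693, adjusted p = 0.0199). Its highest alpha value was that of alpha control 2, the library with the most beta marker RNA, whose part in it was not tested. Slc7a15, a further SLC7 light chain, had 0.191, 0.324 and 0.519 CPM in delta, 1.60, 1.34 and 1.82 CPM in alpha and 5.55, 6.09 and 7.46 CPM in beta controls. The groups did not overlap, and all 3 pairs passed the threshold. Slc3a1, the rBAT heavy chain gene, lay between 0.954 and 3.95 CPM in the control libraries, and no pair of control cell types passed the threshold.

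**Figure D1:**
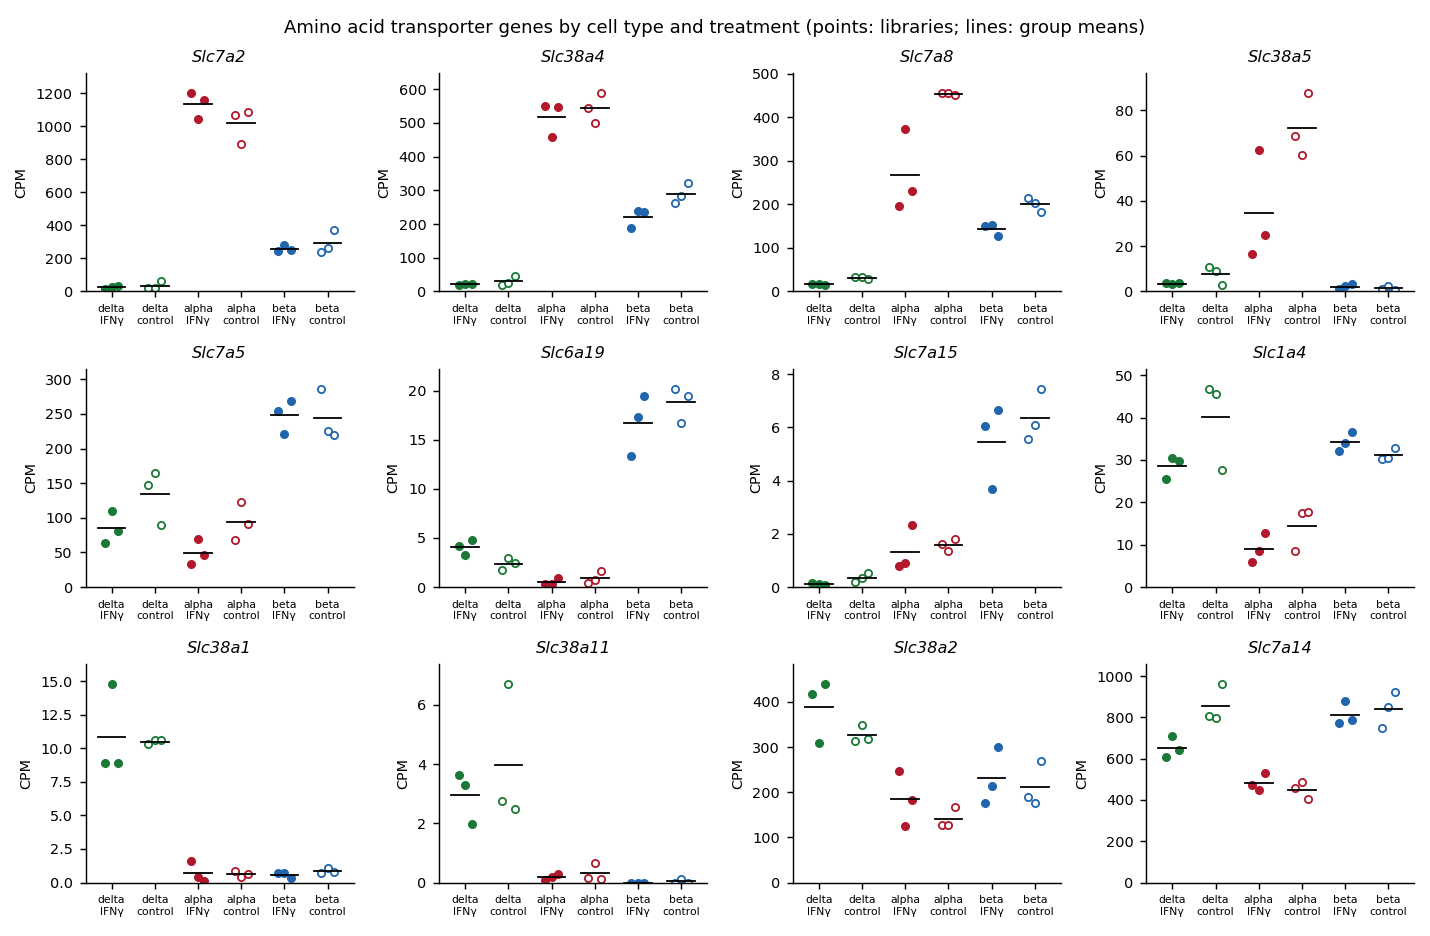
CPM (counts scaled to library size) of 12 amino acid transporter genes in each library, with filled points for IFNγ, open points for control, lines for group means and a linear axis from 0 for each gene. Slc7a2, Slc38a4, Slc7a8 and Slc38a5 stand highest in alpha cells, Slc7a5, Slc6a19 and Slc7a15 in beta cells, and Slc38a1 and Slc38a11 in delta cells, in IFNγ and in control libraries. Slc38a1 and Slc38a11 met the count minimum only through delta cells.

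The sodium-coupled neutral transporters of the SLC38 family held wide contrasts in both directions. Slc38a4, which carries neutral amino acids such as alanine and is best known from liver, had 20.2, 25.7 and 46.5 CPM in delta, 543, 501 and 588 CPM in alpha and 263, 283 and 323 CPM in beta controls. The groups did not overlap. The log2 fold change was -3.23 for delta over beta (adjusted p = 3.36e-08), -4.14 for delta over alpha (SE 0.260, adjusted p = 4.58e-09) and 0.91 for alpha over beta cells (SE 0.229, adjusted p = 0.00807). Slc38a4 lies on chromosome 15 from 96994820 to 97055956 (ENSMUSG00000022464). Slc38a5, a carrier of glutamine, asparagine, histidine and serine that is known for its part in alpha cell growth in mice, had 10.8, 8.87 and 2.91 CPM in delta, 68.6, 60.1 and 87.6 CPM in alpha and 1.28, 2.34 and 0.457 CPM in beta controls. The groups again did not overlap. The beta controls held 1312, 3195 and 244 CPM of the alpha markers, and their part in the beta levels of Slc38a5 was not tested. The log2 fold change was 2.40 for delta over beta (SE 0.591, adjusted p = 0.0063), -3.26 for delta over alpha (SE 0.504, adjusted p = 0.000115) and 5.66 for alpha over beta cells (SE 0.604, adjusted p = 2.55e-06).

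In a pair of SLC38 genes, which met the count minimum only through delta cells, delta levels stood above both others. Slc38a1, a glutamine carrier abundant in neurons, had 10.3, 10.6 and 10.6 CPM in delta, 0.872, 0.402 and 0.641 CPM in alpha and 0.712, 1.05 and 0.761 CPM in beta controls. The log2 fold change was 3.60 for delta over beta (SE 0.560, adjusted p = 0.000101) and 4.02 for delta over alpha cells (SE 0.577, adjusted p = 5.34e-05). Slc38a11, a little studied member of the family, had 2.77, 6.70 and 2.49 CPM in delta and 0.145, 0.669 and 0.107 CPM in alpha controls. In the 3 beta controls it had 1 count in all, a ratio of delta to beta of 86.7 with a 95% counting interval (exact, Clopper-Pearson) of 15.3 to 3454. With IFNγ it had 3.62, 3.31 and 1.97 CPM in delta and 0 counts in all 3 beta libraries, at least 21.1-fold higher in delta against a floor of 3 counts over the group. Such intervals and floors cover counting error only. Slc38a2, which takes up glutamine and alanine and is known to be induced by amino acid lack, had 314, 349 and 318 CPM in delta, 128, 127 and 167 CPM in alpha and 189, 175 and 268 CPM in beta controls. Delta exceeded alpha controls by 1.22 on the log2 scale (SE 0.255, adjusted p = 0.00209), and the other pairs did not pass the threshold.

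Among the SLC6 carriers, Slc6a19, the neutral amino acid transporter of gut and kidney brush border, stood high in beta cells. It had 1.72, 2.92 and 2.49 CPM in delta, 0.436, 0.669 and 1.60 CPM in alpha and 20.2, 16.7 and 19.5 CPM in beta controls. The log2 fold change was -2.98 for delta over beta (SE 0.380, adjusted p = 1.11e-05) and -4.30 for alpha over beta cells (SE 0.425, adjusted p = 1.24e-06). For delta over alpha controls it was 1.32 (SE 0.437, adjusted p = 0.0403), which turned to -0.20 on the log2(TPM + 1) scale. The antisense partner Slc6a19os was likewise highest in beta cells, with 3.13, 4.57 and 1.83 CPM in beta controls and at most 0.573 CPM in the other control libraries. Slc6a19os met the count minimum only through beta cells. The library kit kept strand, but the sources used here do not say whether the counting used it, so whether reads of the pair were kept apart is not known. The same holds for the 17 of 37 genes that overlap a gene on the other strand.

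In kidney, Slc6a19 is known to need collectrin (gene Cltrn) to reach the membrane, and this partner gene ran against it. Cltrn averaged 702 CPM in delta, 709 in alpha and 250 CPM in beta controls, a log2 fold change of 1.49 for delta over beta (SE 0.346, adjusted p = 0.00418) and 1.501 for alpha over beta cells (SE 0.346, adjusted p = 0.00424). Slc6a17, a vesicular carrier of neutral amino acids in neurons, had 85.9, 89.0 and 59.9 CPM in delta, 111, 125 and 143 CPM in alpha and 49.6, 50.5 and 50.1 CPM in beta controls. Alpha exceeded beta controls by 1.34 on the log2 scale (SE 0.238, adjusted p = 0.000484), and delta over alpha was -0.69 (SE 0.234, adjusted p = 0.0439). Slc6a8, the creatine transporter, had 44.2, 36.7 and 30.7 CPM in delta and 21.1, 22.2 and 17.6 CPM in alpha controls (log2 fold change 0.87, SE 0.257, adjusted p = 0.0224).

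The SLC1, SLC36 and SLC43 genes gave further differences. Slc1a4, the ASCT1 exchanger of alanine, serine and cysteine, had 46.9, 45.5 and 27.7 CPM in delta, 8.43, 17.4 and 17.6 CPM in alpha and 30.3, 30.6 and 32.9 CPM in beta controls. Alpha controls lay below both others, at a log2 fold change of 1.46 for delta over alpha (SE 0.283, adjusted p = 0.00105) and -1.10 for alpha over beta cells (SE 0.283, adjusted p = 0.00913). Slc1a5, the glutamine exchanger ASCT2, ran the other way at 5.38, 5.75 and 6.84 CPM in alpha and 2.85, 1.41 and 2.59 CPM in beta controls (log2 fold change 1.40, SE 0.483, adjusted p = 0.0485), a call lost in 20 of 31 alternatives, most single libraries left out among them. Slc1a1, a glutamate transporter that likewise met the minimum only through delta cells, had 67 counts in the 3 delta controls, 6 in the alpha and 5 in the beta controls (adjusted p = 0.0081 for delta over beta and 0.0123 for delta over alpha). Slc36a1, a proton-coupled carrier of lysosomes and brush borders, had 39.8, 40.4 and 43.1 CPM in alpha and 108, 80.1 and 79.9 CPM in beta controls (log2 fold change -1.12, SE 0.246, adjusted p = 0.00297). Slc43a2, the LAT4 carrier of branched-chain amino acids and phenylalanine, had 93.1, 94.1 and 82.9 CPM in delta, 176, 188 and 209 CPM in alpha and 199, 177 and 148 CPM in beta controls. The delta controls lay below all others, at a log2 fold change of -0.96 over beta (SE 0.208, adjusted p = 0.00243) and -1.09 over alpha cells (SE 0.208, adjusted p = 0.000966).

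**Figure D2:**
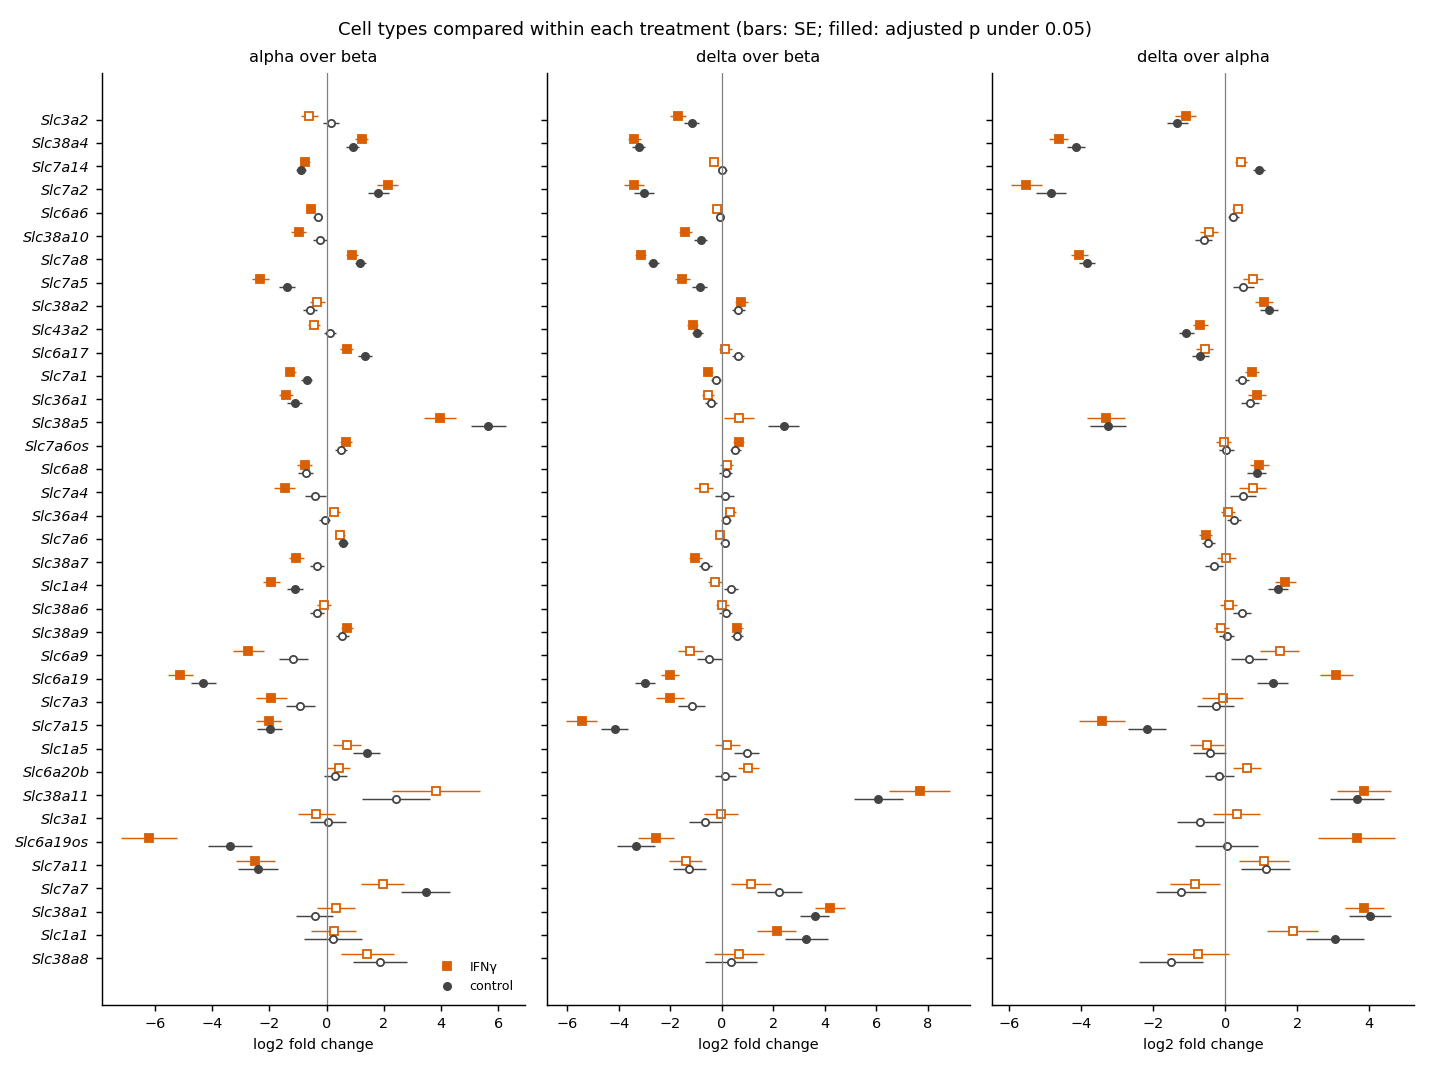
Log2 fold changes between cell types for 37 genes, in order of mean TPM from the top, with squares for IFNγ and circles for control libraries, bars for SE and filled symbols for an adjusted p under 0.05. For delta over alpha cells Slc7a2, Slc38a4 and Slc7a8 lie far to the left in both treatments, at -4.84, -4.14 and -3.84 in controls, and for alpha over beta cells Slc38a5 lies far to the right, at 5.66 in controls.

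The cell types were also compared within the IFNγ libraries. These share the estimate of spread with the control comparisons, since 1 model was fitted to all 18 libraries, and the difference between the treatments is tested further below. Alpha and beta cells with IFNγ differed in 23 of 37 genes, where 27.1% of all genes did, with 7 higher (13.8% of all genes) and 16 lower in alpha (13.3%). Delta and beta cells differed in 19, against 36.4% of all genes, with 6 higher (18.4%) and 13 lower in delta (18%). Delta and alpha cells differed in 17, against 16% of all genes, with 9 higher (8.87%) and 8 lower in delta (7.13%). Of the control differences, 14 of 17 were called in the same direction for alpha against beta, 13 of 14 for delta against beta and 13 of 16 for delta against alpha cells, and 0 were called in the other direction. The share over all genes that repeated is not given here, so these counts do not set the transporters apart from other genes. With file date as a term the IFNγ calls for alpha against beta stayed at 23 (23.9% of all genes). Of the 17 control differences 15 were then repeated, again without the share over all genes. Delta IFNγ 2 and 3 and delta controls 1 and 2 have file dates that no other library shares. In that fit delta cells thus rest on delta IFNγ 1 and delta control 3, 1 library per treatment. Fewer IFNγ differences of delta cells were then called, and which control differences repeat cannot be told from it. In both treatments Slc7a2, Slc38a4, Slc7a8 and Slc38a5 were highest in alpha cells past the threshold against both others. Slc7a5, Slc6a19, Slc6a19os and Slc7a15 were so in beta cells, and Slc38a1 and Slc38a11 in delta cells. Of these, Slc6a19os, Slc38a1 and Slc38a11 met the count minimum only through that cell type. Slc7a2, Slc38a4, Slc7a8, Slc3a2, Slc43a2 and Slc7a15 were lowest in delta cells in both treatments. Slc6a9 passed the threshold between alpha and beta cells with IFNγ (log2 fold change -2.73, SE 0.536, adjusted p = 0.000968) and not in controls, where alpha control 2 had 8.70 CPM and the other alpha controls 1.89 and 1.71 CPM.

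On the log2(TPM + 1) scale 7 genes were higher and 4 lower in control alpha than in control beta cells, where 7.95% and 4.45% of all genes were. Without beta controls 1 and 3 and delta control 3 fewer control differences against beta cells were called, but the beta controls then rest on 1 library. Under every alternative compared, leaving out each library included, Slc7a2, Slc38a4 and Slc7a8 stayed called between all 3 pairs of control cell types. So did Slc38a5 for alpha against both others and Slc6a19 for beta against both others. Slc38a1 stayed called for delta against both others too, but its delta excess is tied to the count minimum. A replicate block in beta cells only was also run and was not compared for these pairs. A fit to the dates shared by alpha and beta cells held no delta cells. In the fits with file date or without the 3 controls named above, a group rests on 1 library.

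Several of these carriers belong to the genes that the transcription factor ATF4 is known to induce when amino acids are short, through a C/EBP-ATF response element. Of 22 other genes of this response that were tested, 12 were lower and 1 higher in alpha than in beta controls, where 10.1% and 9.56% of all genes were, with a median log2 fold change of -1.21, against 0.04 over all genes. They included Atf4 itself (log2 fold change -1.16, SE 0.261, adjusted p = 0.00352) and Asns, which makes asparagine (-1.74, SE 0.283, adjusted p = 0.000212). For delta over alpha controls 8 were higher and 1 lower, where 10.9% and 8.77% of all genes were, and for delta over beta controls 1 was higher and 6 lower, where 11.4% and 9.11% were. Without beta controls 1 and 3 and delta control 3, 5 were higher in delta than in alpha controls (6.94% of all genes). Fewer were then called lower in alpha or delta than in beta controls, but the beta controls rest on 1 library in that fit. Of the transporters known to respond to ATF4 or to amino acid lack, named here after their values were seen, Slc7a11, Slc1a4, Slc7a5 and Slc7a1 were lower in alpha than in beta controls, Slc1a5 was higher, and Slc3a2, Slc38a2 and Slc6a9 did not pass the threshold. Without the 3 controls the Slc7a11, Slc1a4 and Slc7a1 calls were lost and that of Slc7a5 held, again with 1 beta control library.

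Promoter windows of 250 bases before to 50 bases after the start site, from RefSeq on GRCm38.p6, were found for 29 of the 37 genes, 42 windows in all. The C/EBP-ATF element was searched as TGATGNAAN on both strands. It occurred in windows of Slc7a11, Slc1a4 and Slc7a7, and in 3.95% of all 32851 windows of that length. The windows of Slc7a11 (chr3:50443564-50443863, minus strand) and Slc1a4 (chr11:20332664-20332963, minus strand) are shown because both genes were lower in alpha than in beta controls, while Slc7a7, with matches in 2 windows, was higher. Capitals mark the element, which occurs in Slc7a11 on each strand, from 66 to 58 and from 48 to 40 bases before the start site. Capitals also mark, further upstream in Slc7a11, the match TTCTGGGAA to the STAT motif TTCNNNGAA, which 8.30% of all windows held. A match is a description of the letters and says nothing of binding.
Slc7a11: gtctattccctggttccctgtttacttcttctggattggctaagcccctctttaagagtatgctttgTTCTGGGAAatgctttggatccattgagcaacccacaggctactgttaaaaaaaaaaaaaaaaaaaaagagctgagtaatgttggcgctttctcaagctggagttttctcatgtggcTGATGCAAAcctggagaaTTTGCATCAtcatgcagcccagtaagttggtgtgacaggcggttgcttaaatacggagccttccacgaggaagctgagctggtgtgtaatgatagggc
Slc1a4: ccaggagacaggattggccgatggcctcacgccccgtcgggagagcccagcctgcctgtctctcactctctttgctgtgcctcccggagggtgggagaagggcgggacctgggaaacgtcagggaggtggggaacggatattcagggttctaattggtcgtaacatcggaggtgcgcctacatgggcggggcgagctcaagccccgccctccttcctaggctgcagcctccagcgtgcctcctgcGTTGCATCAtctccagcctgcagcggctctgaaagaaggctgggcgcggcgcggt

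Few of the 37 genes were called with IFNγ, as few of all genes were. A missed threshold does not show that a gene was unchanged. In alpha cells 0 of 37 passed the threshold in edgeR, where 0.975% of all genes did, and 11 had an unadjusted p under 0.05, where 21.6% of all genes had. In beta cells 0 passed, where 1.06% of all genes did, and 1 had an unadjusted p under 0.05, where 4.26% had. DESeq2 called 3 in alpha (4.39% of all genes) and 0 in beta cells (1.01%), and limma-voom 2 in alpha (0.981%) and 0 in beta cells (1.05%). In delta cells 1 was lower and 0 higher, where 0.185% of all genes were lower and 1.21% higher. Averaged over the 3 cell types 2 were lower and 0 higher, where 0.669% of all genes were lower and 2.23% higher. The median log2 fold change of the 37 genes was -0.32 in delta, -0.31 in alpha and 0.01 in beta cells, against -0.05, -0.01 and 0 over all genes. IFNγ and control libraries did not overlap for 5 of 37 genes in delta, 4 in alpha and 6 in beta cells, where 15.5%, 18.6% and 10.9% of all genes did not.

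Slc7a8 fell with IFNγ on average and in delta cells. In delta cells it had 16.7, 17.7 and 14.1 CPM with IFNγ, against 33.6, 33.4 and 27.8 CPM in controls. In alpha cells it had 197, 373 and 231 CPM with IFNγ, against 455, 456 and 450 CPM in controls. In beta cells it had 150, 152 and 128 CPM with IFNγ, against 215, 202 and 183 CPM in controls. Every IFNγ library lay below every control library of its own cell type. The log2 fold change was -0.97 in delta (SE 0.208, adjusted p = 0.0172), -0.77 in alpha (SE 0.199, adjusted p = 0.0878) and -0.48 in beta cells (SE 0.200, adjusted p = 0.932). Averaged over the cell types it was -0.74 (SE 0.117, adjusted p = 0.000503).

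The averaged Slc7a8 call held on leaving out any single library and on both TPM scales. The call in delta cells was lost on both TPM scales and without delta IFNγ 1 (adjusted p = 0.0686), delta IFNγ 3 (0.0780), delta control 1 (0.0840) or delta control 2 (0.0857). With the date in the deposited file names as a term both Slc7a8 calls were lost. The log2 fold change was then -0.23 in delta cells and -0.46 on average. Slc7a2, at -0.53 in delta cells without the term (adjusted p = 0.596), was then at -2.44 in delta cells and -0.76 on average. In that fit delta cells rest on delta IFNγ 1 and delta control 3 (12.2 and 62.0 CPM of Slc7a2), 1 library per treatment. Delta control 3 was also the delta library with the most alpha marker RNA, so no p is given. For delta cells no single date had both IFNγ and control libraries, so that date and treatment cannot be told apart there. Within the dates that held both treatments, the log2 difference of Slc7a8 between IFNγ and control was -0.29 and -0.98 in alpha and -0.52 and -0.41 in beta cells. Slc7a8 lies on chromosome 14 from 54722209 to 54781946 (ENSMUSG00000022180) and overlaps no other gene.

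Slc43a2 was lower on average, at a log2 fold change of -0.53 (SE 0.120, adjusted p = 0.0158). It had 62.2, 84.1 and 49.9 CPM in delta IFNγ, against 93.1, 94.1 and 82.9 CPM in delta control libraries. It had 92.2, 140 and 86.1 CPM in alpha IFNγ, against 176, 188 and 209 CPM in alpha control libraries. In beta cells it had 150, 134 and 146 CPM with IFNγ, against 199, 177 and 148 CPM in controls. The groups did not overlap in alpha cells, and in delta and beta cells a single library of one group reached into the other. In no cell type alone did Slc43a2 pass the threshold (adjusted p = 0.398 in delta, 0.0621 in alpha and 1 in beta cells). The averaged call was lost on both TPM scales (adjusted p = 0.386 and 0.390) and held on leaving out any single library. It was also lost with file date as a term and without beta controls 1 and 3 and delta control 3. In both of these fits a group rests on 1 library. Slc43a2 lies on chromosome 11 from 75531694 to 75577575 (ENSMUSG00000038178) and overlaps the antisense RNA Gm45606.

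**Figure D3:**
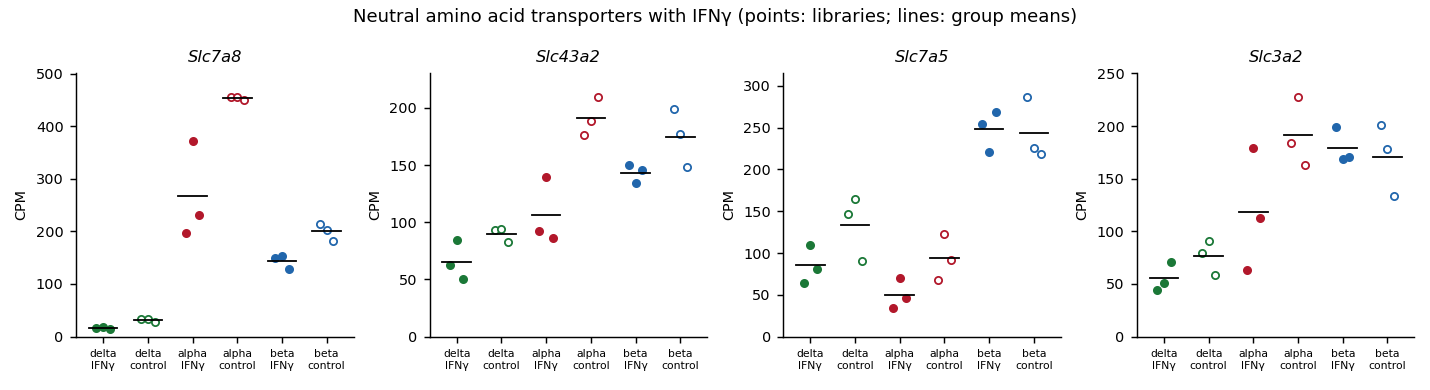
CPM of Slc7a8, Slc43a2, Slc7a5 and Slc3a2 in each library, with filled points for IFNγ, open points for control and lines for group means, on linear axes from 0. For Slc7a8 the IFNγ libraries lie below the control libraries in all 3 cell types, and for Slc7a5 and Slc3a2 the groups overlap in all 3.

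Other members lay below the control level without passing the threshold. Slc7a5 had 33.6, 69.9 and 45.6 CPM in alpha IFNγ, against 67.4, 123 and 91.7 CPM in alpha control libraries, and averaged over the cell types its log2 fold change was -0.52 (SE 0.164, adjusted p = 0.115). Its partner Slc3a2 averaged -0.36 (SE 0.168, adjusted p = 0.287), and Slc38a4 -0.34 (SE 0.133, adjusted p = 0.213). Slc38a4 had 19.4, 21.8 and 21.7 CPM in delta IFNγ, against 20.2, 25.7 and 46.5 CPM in delta control libraries, and 189, 239 and 236 CPM in beta IFNγ, against 263, 283 and 323 CPM in beta control libraries. The groups overlapped in delta and not in beta cells, at an adjusted p of 0.369 in delta and 1 in beta cells. In delta cells Slc7a14 had a log2 fold change of -0.39 (SE 0.167, adjusted p = 0.377). On average, 30 of the 37 genes had a log2 fold change below 0 and 7 above 0. Their median was -0.20, against -0.02 over all genes, and most of these changes did not pass the threshold. In the test of whether the response to IFNγ differs between cell types, 0 of 37 genes passed in edgeR, DESeq2 or limma-voom, and 1, Slc6a19, had an unadjusted p under 0.05 in edgeR. Of all 17338 genes 0% passed it in edgeR, and 7.17% had an unadjusted p under 0.05, so the separate calls above do not show that the cell types respond differently.

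**Figure D4:**
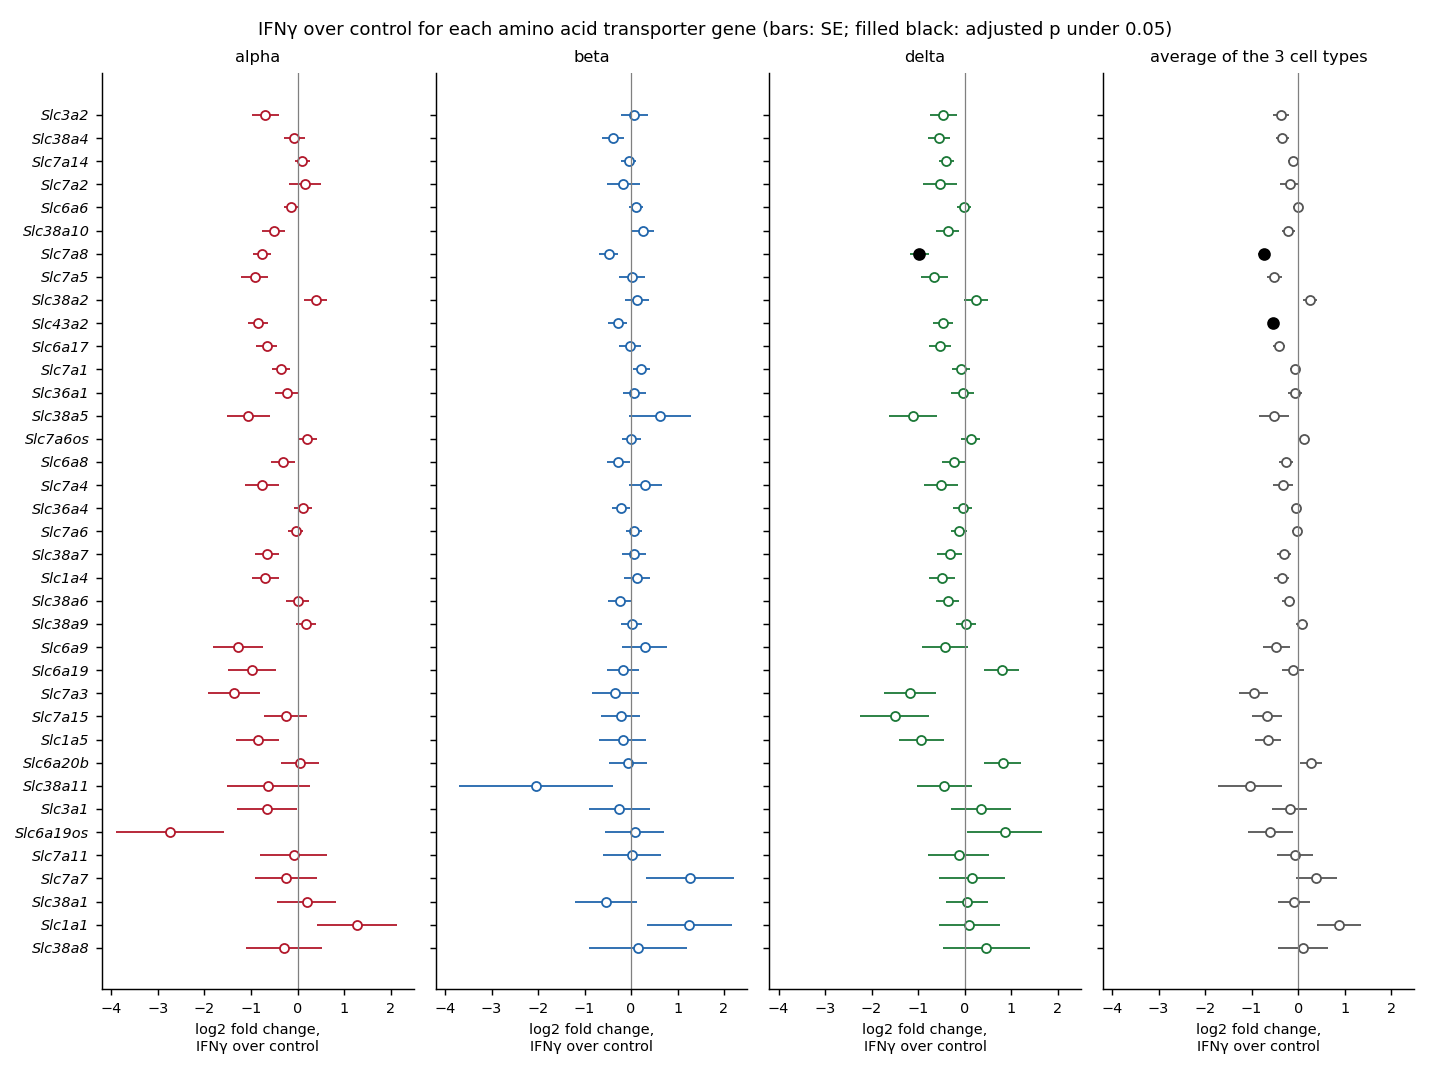
Log2 fold change of IFNγ over control for 37 genes in each cell type and averaged over the 3, in order of mean TPM from the top, with bars for SE and filled black points for an adjusted p under 0.05. Slc7a8 passes in delta cells at -0.97 and on average at -0.74, and Slc43a2 on average at -0.53.

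The base composition of the libraries and their share of mitochondrial RNA moved with the treatment in alpha and delta cells. A balance was taken per library as the median log2 deviation of the 4330 tested genes of lowest GC content minus that of the 4330 of highest. It was 0.774, 0.409 and 0.818 in delta IFNγ, against -0.0996, -0.0563 and 0.818 in delta control libraries. It was 0.949, -0.544 and 0.809 in alpha IFNγ, against -0.461, -0.683 and -0.722 in alpha control libraries. Alpha IFNγ 2 thus stood with the alpha controls, and delta control 3 with the delta IFNγ libraries. Mitochondrial genes took 7.09%, 5.00% and 6.36% of counts in delta IFNγ, against 4.04%, 3.75% and 6.62% in delta control libraries. They took 5.72%, 2.20% and 5.53% in alpha IFNγ, against 2.90%, 2.34% and 1.80% in alpha control libraries, with alpha IFNγ 2 and delta control 3 again apart from their groups, and the part of this share in the IFNγ differences was not tested. Slc7a8 and Slc43a2, with transcripts of 52.8% and 53.5% GC, stood at percentiles 71.1 and 74.4 of the tested genes.

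Without alpha IFNγ 2, 10 of the 37 genes were called in alpha cells and 6 on average. All of these were lower, while 20.8% and 8.97% of all genes were then called in either direction. The share of all genes called lower is not given here, so the 2 measures are unlike. Slc38a5 was among the 10, with 16.4 and 24.9 CPM in alpha IFNγ 1 and 3 and 62.6 CPM in alpha IFNγ 2, against 68.6, 60.1 and 87.6 CPM in alpha controls. With an offset for GC content 0 of 37 genes were called in alpha cells, where 1.08% of all genes were. Slc7a8 was then called in delta cells (-0.81, SE 0.138, adjusted p = 0.00166), in beta cells (-0.59, SE 0.131, adjusted p = 0.0261) and on average (-0.64, SE 0.077, adjusted p = 1.48e-05). On average Slc43a2 (-0.42, SE 0.079, adjusted p = 0.00306) and Slc38a4 (-0.47, SE 0.102, adjusted p = 0.00991) were called too.

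**Figure D5:**
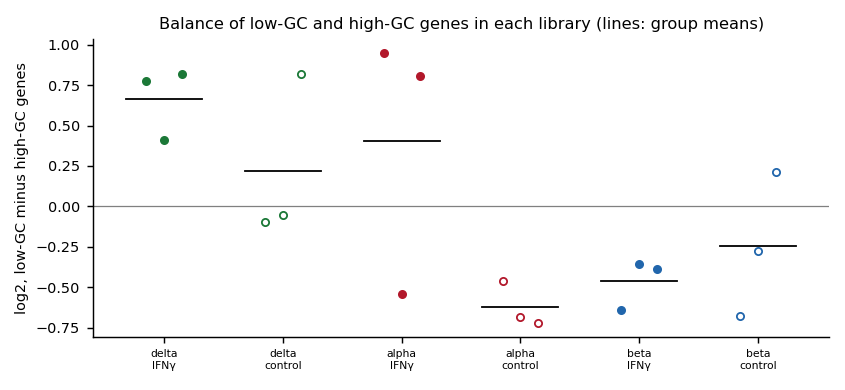
GC balance of each library on the log2 scale (median of the low-GC genes minus median of the high-GC genes, 4330 genes in each), with filled points for IFNγ, open points for control and lines for group means. Alpha IFNγ 1 and 3 stand at 0.949 and 0.809, apart from alpha IFNγ 2 at -0.544.

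The STAT motif TTCNNNGAA and the interferon-stimulated response element, searched as GAAA, NN and GAAA in a row on both strands, are letters that interferon-induced genes are known for. The STAT motif occurred in a window of Slc38a9, Slc7a1 and Slc7a11. The response element occurred in 0 windows of the 29 genes, and in 3.44% of all windows. The windows of Slc7a8 (chr14:54781837-54782136, minus strand) and the first of Slc43a2 (chr11:75531444-75531743, plus strand) are shown because these are the genes that were lower with IFNγ. They are in lower case throughout since they hold none of the motifs searched.
Slc7a8: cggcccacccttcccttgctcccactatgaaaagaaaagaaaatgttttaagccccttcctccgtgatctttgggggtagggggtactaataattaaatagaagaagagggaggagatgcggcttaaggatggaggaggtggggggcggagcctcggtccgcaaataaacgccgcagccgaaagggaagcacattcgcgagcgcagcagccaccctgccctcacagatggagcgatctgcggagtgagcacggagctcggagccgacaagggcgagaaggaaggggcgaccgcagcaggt
Slc43a2: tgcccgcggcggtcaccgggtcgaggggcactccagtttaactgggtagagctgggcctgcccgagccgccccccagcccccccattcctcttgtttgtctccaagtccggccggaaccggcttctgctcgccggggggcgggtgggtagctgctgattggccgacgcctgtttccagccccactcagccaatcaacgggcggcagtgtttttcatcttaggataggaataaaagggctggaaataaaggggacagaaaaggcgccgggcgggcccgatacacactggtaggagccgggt

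Other genes that carry, sense or metabolize amino acids were taken from 9 lists, 126 distinct genes tested in edgeR. With IFNγ 0 were called in delta, 1 in alpha and 1 in beta cells and 2 on average, where 1.39%, 0.975%, 1.06% and 2.9% of all genes were. An unadjusted p under 0.05 was found for 14.3% of them in delta, 33.3% in alpha and 4.76% in beta cells and 27.8% on average, where 11.7%, 21.6%, 4.26% and 16.7% of all genes had one. DESeq2 called 1 in delta (1.89% of all genes), 5 in alpha (4.39%), 3 in beta cells (1.01%) and 11 on average (4.83%), and limma-voom 0, 0, 2 and 2 (1.45%, 0.981%, 1.05% and 2.69%). The lists, which share some genes, held 7 amino acid transporters of other families, 12 mitochondrial carriers, 22 ATF4 response genes, 32 genes of amino acid sensing by mTORC1 and 4 transporter partners. They further held 17 enzymes of glutamate, glutamine and GABA, 8 of arginine and the urea cycle, 13 genes of cystine and glutathione and 13 enzymes of branched-chain and aromatic amino acids.

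The calls in edgeR were all among the enzymes of branched-chain and aromatic amino acids. Wars, the tryptophanyl-tRNA synthetase that interferons are known to induce, averaged 574 CPM in beta IFNγ and 172 CPM in beta control libraries (log2 fold change 1.74, SE 0.253, adjusted p = 0.00029), and rose on average over the cell types by 1.14 (SE 0.145, adjusted p = 3.08e-05). Tdo2, which breaks down tryptophan, was higher in alpha cells at 2.46 CPM with IFNγ and 0.408 CPM in controls (log2 fold change 2.62, SE 0.548, adjusted p = 0.0175). Ido1, which does so in immune responses, averaged 0.286 CPM in delta, 0.327 CPM in alpha and 1.98 CPM in beta cells with IFNγ, was at 0 in all 9 control libraries and passed on average (adjusted p = 0.00882).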

How the data were processed

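RNA of sorted islet cells (5 ng per library, Ovation SoLo kit, paired reads of 75 bases) was aligned by the authors with STAR 2.5.2b to GRCm38 and quantified per gene with RSEM, whose version the sources used here do not give. The deposited files hold, per library, expected counts (estimated read counts, not scaled) and TPM values that the authors computed with RSEM by effective transcript length. The authors' own tests used DESeq2 1.32.0 with batch as a term. The labels give no batch, so the main fit described below has no batch term.

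Expected counts were rounded and fitted with edgeR 4.0.16 (R 4.3.3) in one quasi-likelihood model of 6 group means over 18 libraries (12 residual degrees of freedom), after filterByExpr (minimum count 10, 17338 genes) and TMM scaling. P-values were adjusted by Benjamini-Hochberg over all genes tested, at a threshold of 0.05, and SE is the fold change divided by the root of F. The averaged comparison is the mean of the 3 differences between IFNγ and control. The study describes its replicates as independent experiments, and the labels do not tie libraries to animals, so that p-values measure the spread between these libraries. Gene symbols, positions and GC content came from GENCODE M21.

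The members and gene lists were chosen with earlier results of these data known. Named were 26 listed genes, the members called or of the 3 smallest p for each IFNγ comparison, up to 8 rises and 8 falls by fold change per control cell type comparison (called, 5 CPM or more in a group, no overlap), the 10 of highest mean TPM and those nearest the minimum of 90 counts. Other genes named were chosen after their values were seen. Alternatives were DESeq2 1.42.0, limma 3.58.1 (voom, and log2(TPM + 1) and log2(TPM + 0.1)), other scaling and filters, a replicate block, a file date term, a GC offset and leaving libraries out, singly or as the 3 controls that stood apart in acinar RNA (beta control 1, delta control 3) or by a dissociation enzyme named with the library (beta control 3). Some results are not reported here. Same-numbered IFNγ and control libraries deviated together by r = 0.223, 0.192 and 0.126 in beta cells, where 2 of the 3 pairs share a file date. In alpha (0.0943, 0.0536 and -0.194) and delta cells (-0.0483, 0.202 and 0.279) the signs were mixed. Whether numbers mark pairs is not known from these values. The main fit used no pairs, and a replicate block was run as an alternative.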

Additional observations from a re-analysis of the deposited data

How the results depend on the processing

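Of 109 called values of the 37 genes, DESeq2 kept 109, limma-voom 106, DESeq2 size factors 107, no low-count filter 100, the GC offset 103, the file date term 73, log2(TPM + 1) 70 and log2(TPM + 0.1) 73. TPM turned 1 value round, Slc6a19 for control delta over control alpha cells, at -0.20 and -0.45, and the cause was not tested. For IFNγ against control, alpha cells gave 3 genes with DESeq2 (4.39% of all genes) and 2 with limma-voom (0.981%). They gave 4 with no low-count filter (4.44%), 2 with the replicate block (1.07%) and 0 to 10 on leaving out each library. Beta cells gave 1 with the GC offset, alone (1.25% of all genes) or with the block (1.26%). They gave 0 with the block in beta cells only (0.975%) and 0 on leaving out each library. Delta cells gave 0 on both TPM scales (1.03% and 1.01% of all genes), 2 with no filter (1.83%) and 0 to 1 on leaving out each library. The average gave 1 on both TPM scales (1.49% and 1.55% of all genes), Slc7a8 each time. With file date, where delta cells rest on 1 library per treatment, Slc7a2 stood at -0.76 on average and -2.44 in delta cells. The Slc7a8 and Slc43a2 calls were lost in that fit. The average gave 4 with the replicate block and GC offset (3.51% of all genes), and 2 to 6 on leaving out each library. The interaction gave 1 with no filter.

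Control alpha against beta cells gave 11 on both TPM scales (7 higher and 4 lower, against 8 and 9). Of all genes 12.4% and 13% were called on these scales, against 19.7% in the main fit. Leaving out each library gave 12 to 18. Control delta against beta gave 9 on log2(TPM + 1), where 12% of all genes were called, and 12 to 16 on leaving out each library. Control delta against alpha gave 4 higher and 7 lower on log2(TPM + 1) (5.23% and 8.1% of all genes). With the GC offset it gave 13 higher and 8 lower (10.6% and 8.94%), against 8 and 8 in the main fit (10.9% and 8.77%). Leaving out each library gave 13 to 18. IFNγ alpha against beta gave 15 on both TPM scales (3 higher and 12 lower), where 15.1% and 15.9% of all genes were called, and 17 to 24 on leaving out each library. IFNγ delta against beta gave 3 higher and 14 lower on log2(TPM + 1) (9.41% and 20.2% of all genes) and 3 and 15 on log2(TPM + 0.1) (9.78% and 20.8%). Leaving out each library gave 14 to 21. IFNγ delta against alpha gave 10 and 11 on the TPM scales (10.7% and 11.4% of all genes) and 12 to 18 on leaving out each library. With file date both comparisons had fewer calls, but delta IFNγ then rests on 1 library. On log2(TPM + 1) the median of all genes moved by 0.138 for control alpha over beta and by -0.199 for IFNγ delta over beta cells.

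The replicate block gave 2 genes in alpha (1.07% of all genes), 0 in beta (1.04%), 1 in delta cells (1.39%) and 2 on average (3.03%). It gave 17, 18 and 17 for the control comparisons of cell types (19.9%, 20.8% and 20.6%). For those with IFNγ it gave 25, 21 and 18 (27.7%, 37% and 16.2%), and it kept 108 of 109 calls. Only in beta cells did each same-numbered pair correlate above 0.1. Shares of all genes are not given for the ranges on leaving out each library, apart from the fit without alpha IFNγ 2. With 3 libraries a group, members under 1 TPM rest on few counts, and a difference that missed the threshold may lie below what this depth shows.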
